A study of Homo sapiens with 16 samples.

Results

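The genes described here are the protein-coding genes of human chromosome 19 whose symbol is ZNF followed by a number. The deposited table holds 57736 genes, 238 of which met this rule by their GRCh37 position, and 223 of them had enough counts to be tested. They were followed in H9, an established human embryonic stem cell line, on days 0, 12, 30 and 70 (D0, D12, D30 and D70) of a neural differentiation driven by dual SMAD inhibition. At each stage 2 libraries of total RNA depleted of ribosomal RNA came from cells kept in 40 µM Thiamet-G (TMG), an inhibitor of the O-GlcNAcase OGA, and 2 from cells kept in the solvent DMSO, called control here, so that 8 groups and 16 libraries were compared. All groups came from the same cell line and shared the differentiation procedure, with no genetic change. The members were chosen by a measured value: chromosome 19 had the median TMG effect on D30 that departed most from that of all genes. For that reason the D30 comparison of TMG with control is described without a test, while stages and the other TMG comparisons were tested.

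Zinc finger proteins of this kind bind DNA through strings of C2H2 fingers, each held together by a zinc ion. In most of them an amino-terminal KRAB domain recruits TRIM28 (KAP1), which in turn brings in the histone methyltransferase SETDB1 and silences the bound site, often a transposable element. The genes arose largely by tandem duplication, and chromosome 19 carries the main human clusters. OGA removes O-GlcNAc, a single sugar on serine and threonine residues of nuclear and cytoplasmic proteins, and its inhibition lets the modification build up.

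The 238 genes fell into 16 runs of neighbours when a new run was opened wherever the next member started over 1 Mb away. The run with 37 members that reaches from ZNF101 to ZNF254 (GRCh37 chr19:19779605-24312770), next to the centromere, is called the pericentromeric run here. The other large runs held 56 members (ZNF628 to ZNF446, chr19:55987984-58992597), 39 members (ZNF175 to ZNF331, chr19:52074536-54083523), 25 members (ZNF653 to ZNF791, chr19:11594242-12750912), 24 members (ZNF565 to ZNF573, chr19:36673178-38307940) and 23 members (ZNF575 to ZNF296, chr19:44029649-45579736). In 235 members a coding sequence could be translated, with a median of 12 C2H2 fingers, and 172 of them, 73.2%, matched a pattern for the KRAB A box, which misses divergent boxes. The finger pattern misses fingers too, since it gave 0 for ZNF274, a C2H2 protein. The pericentromeric run had a median of 13 fingers, and 33 of its 35 translated members matched the KRAB pattern.

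Promoters of the pericentromeric run shared a word of 9 bases, TCCAATCAG, which holds the CCAAT motif. Windows from 250 bases before to 50 bases after the start of transcription came from RefSeq on GRCh38.p14 and were matched by symbol for 205 members. Both strands were searched, and the word was picked after the promoters had been inspected. It stood in 29 of 30 windows of the run, that is in all of its 29 genes with a window, in 23 of 225 windows of the other members, 10.2%, and in 298 of 34943 windows of all genes, 0.853%. The shorter CCAAT alone stood in 43.1% of the windows of the other members and in 34.6% of all windows. The words TGAGTGACA and CCGGAAGC each stood in 22 of 30 windows of the run, in 5.33% and 14.2% of the windows of the other members, and in 0.484% and 3.68% of all windows. A match is a description of letters and not a site of binding. Stretches of 69 bases are printed, 5′ to 3′ on the strand of the gene, for members whose levels are given further on, and each copy of the word is in capitals.
ZNF90, chr19:20077887-20077955 (+): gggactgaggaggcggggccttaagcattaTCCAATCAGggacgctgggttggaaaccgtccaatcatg
ZNF93, chr19:19900831-19900899 (+): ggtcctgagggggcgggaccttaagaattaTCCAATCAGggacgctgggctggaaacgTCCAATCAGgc
ZNF714, chr19:21082085-21082153 (+): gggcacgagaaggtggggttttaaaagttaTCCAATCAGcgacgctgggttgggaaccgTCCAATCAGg
ZNF724, chr19:23250438-23250506 (-): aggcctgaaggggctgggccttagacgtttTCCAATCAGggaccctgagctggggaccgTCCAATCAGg
ZNF730, chr19:23116942-23117010 (+): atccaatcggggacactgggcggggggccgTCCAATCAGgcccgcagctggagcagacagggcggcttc
ZNF91, chr19:23395492-23395560 (-): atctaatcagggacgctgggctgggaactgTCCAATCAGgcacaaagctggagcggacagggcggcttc
ZNF254, chr19:24087104-24087172 (+): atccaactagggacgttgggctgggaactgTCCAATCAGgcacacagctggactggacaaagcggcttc
ZNF93, ZNF714 and ZNF724 held 2 copies and the others 1, and the copies ended between 44 and 79 bases before the start of transcription. The first 5 fell during differentiation, ZNF91 rose, and ZNF254 ended near its D0 level. The word was picked from these promoters and stood in all 29 genes of the run with a window. Its presence in genes of either direction was thus given in advance.

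Library totals ranged from 10334908 to 19836878 counts. The spread between replicates, as chi-square over its degrees of freedom, went from 17.8 for the D0 TMG pair to 106 for the D70 TMG pair, where counting error alone would give 1. The methods of the study call the 2 libraries of a group biological replicates, and the labels do not say how far apart the cultures were kept. Levels are CPM, the counts scaled to a common library size with TMM, and per kilobase (kb) of exon where genes are set against each other. Stem cell markers (POU5F1, NANOG and 4 others) summed to between 3228 and 3697 CPM on D0 and to between 1.90 and 3.47 CPM on D70. On D70 the 6 mesenchymal markers summed to 7333 and 45314 CPM in the control libraries and to 3678 and 59515 CPM in the TMG libraries, and on D30 to 29726 CPM in TMG replicate 2 against 4343 to 5594 CPM in the other 3. The 4 choroid plexus and roof plate markers summed on D70 to 10131 and 223 CPM in control and to 3073 and 11.01 CPM in TMG. The 8 neuron markers summed on D70 to 1184 and 586 CPM in control and to 1224 and 222 CPM in TMG. The 7 neural progenitor markers summed to 3643 and 2349 CPM and to 4648 and 1711 CPM. Of these, VIM alone was at 3027 and 1807 CPM in control.

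The median level of the members was similar on D0 and D70. On D0 the median over the 223 tested members was 3.16 CPM per kb in control cells, and on D70 it was 3.11 CPM per kb. ZNF146 (31.5 CPM per kb), ZNF460 (25.2) and ZNF121 (22.1) were the most abundant on D0. On D70 the order was led by ZNF460 (26.3 CPM per kb), ZNF91 (24.5) and ZNF428 (23.2). The summed level of all 238 genes lay between 4586 CPM (control replicate 1, D70) and 6157 CPM (control replicate 1, D12).

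The 15 members that were not tested reached at most 1.04 CPM in any library. Of these, 9 lay next to each other in the middle of the pericentromeric run, from ZNF208 to ZNF728 (GRCh37 chr19:22115760-23185978), a stretch of 1070 kb. The 9 genes together received 26 counts over 16 libraries, and the gene with the most received 7. Their neighbours on both sides, ZNF43 and ZNF730, were at 92.4 ± 19.7 CPM and 38.0 ± 6.42 CPM on D0 in control cells (SD, n = 2). The other 6 were ZNF556, ZNF560, ZNF541, ZNF534, ZNF888 and ZNF835. ZNF534 was at 0.124 and 0.0699 CPM on D0 and did not exceed 0.438 CPM in any library.

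The first comparison asked how the genes changed from stem cells to later cultures, which on D70 held neural, mesenchymal and choroid plexus markers. From D0 to D70 in control cells 38 of the 223 members rose and 50 fell (edgeR quasi-likelihood test, false discovery rate of 5% over 24249 genes). The total depended on single control libraries, as given at the end. Over all genes tested 15% rose and 14.7% fell, against 17.0% and 22.4% of the members. The median log2 fold change of the members was -0.03, and that of all genes was 0.03. Of 221 tested ZNF genes of other chromosomes 33 rose and 39 fell, with a median of -0.03. Of 961 other coding genes of chromosome 19, 80 rose and 215 fell, with a median of -0.27. The members taken as a whole thus moved in both directions. A change in the share of a cell type and a change of RNA per cell cannot be told apart in these bulk libraries.

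**Figure D1:**
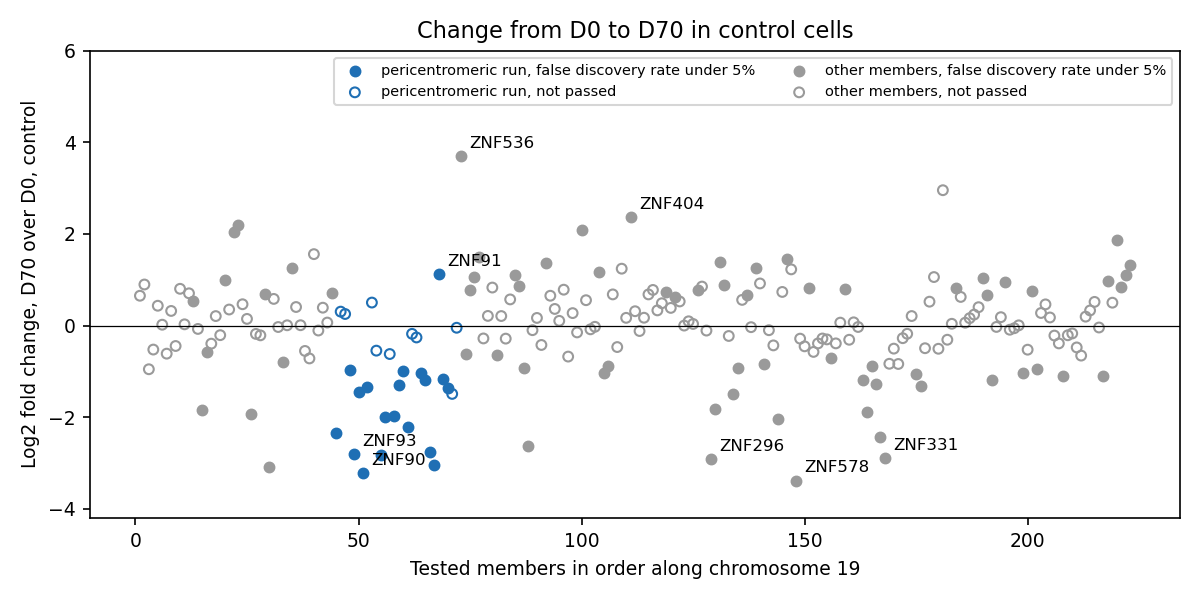
Log2 fold change from D0 to D70 in control cells (vertical axis) of the 223 tested members in their order along chromosome 19 (horizontal axis). Filled points passed a false discovery rate of 5%, and blue points are the 28 tested members of the pericentromeric run, of which 18 fell and 1, ZNF91, rose.

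The share of members that fell was highest, among the large runs, in the pericentromeric run, which held 18 of the 50 that fell. Of its 28 tested members 18 fell from D0 to D70 in control cells, 64.3% against 14.7% of all genes, and 1 rose. The median log2 fold change was -1.24 in the run, against 0.06 in the 195 other tested members, of which 37 rose and 32 fell. The run was singled out after these values were seen, and the difference between runs was not tested. In the other large runs the counts that rose and fell were 10 and 7 of 55 (ZNF628 to ZNF446), 6 and 12 of 37 (ZNF175 to ZNF331), 5 and 3 of 25 (ZNF653 to ZNF791), 4 and 3 of 24 (ZNF565 to ZNF573) and 4 and 1 of 23 (ZNF575 to ZNF296).

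The 18 members that fell were ZNF101, ZNF253, ZNF93, ZNF682, ZNF90, ZNF486, ZNF66, ZNF85, ZNF714, ZNF431, ZNF708, ZNF738, ZNF100, ZNF43, ZNF730, ZNF724, ZNF675 and ZNF681. Their log2 fold changes ran from -3.22 to -0.97, 7 of them lost over 4-fold, and in all 18 both D70 libraries lay below both D0 libraries. All 18 still held at least 10 counts in both D70 control libraries. Groups that do not overlap were found for 64.5% of all genes in this comparison, and for 89.3% of the tested members of the run.

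ZNF90 (ENSG00000213988, GRCh37 chr19:20188803-20237885, + strand) had the largest fitted fall of the run with all libraries included. Control libraries of D0 held 86.8 and 74.6 CPM, those of D12 32.5 and 22.7, those of D30 9.68 and 7.73 and those of D70 4.24 and 13.1 CPM. In TMG cells the pairs were 92.6 and 90.3 CPM (D0), 27.95 and 27.7 (D12), 9.91 and 11.6 (D30) and 5.37 and 9.90 (D70). No library of D12 or later reached the D0 range, while D30 and D70 overlapped in control cells. The log2 fold change from D0 to D70 was -3.22 ± 0.46 (SE, adjusted p = 0.000752, edgeR) in control and -3.58 ± 0.47 (adjusted p = 0.000523) in TMG cells. The control value was -2.62 without D70 control replicate 1, where ZNF724 was at -2.85, and -4.24 without D70 control replicate 2.

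ZNF93 (ENSG00000184635, chr19:20011722-20074273, + strand), a KRAB protein known to silence L1 retrotransposons, followed the same course with tighter replicates. The control pairs were 57.5 and 50.9 CPM (D0), 26.7 and 20.7 (D12), 8.18 and 7.48 (D30) and 7.71 and 7.73 (D70). The fall to D12 was -1.19 ± 0.18 (log2 ± SE, adjusted p = 0.00289, edgeR) and the fall from D12 to D70 was -1.62 ± 0.19 (adjusted p = 0.00190), and the D70 value lay within the D30 range.

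ZNF714 (ENSG00000160352, chr19:21264965-21308073, + strand) fell later. Its control pairs were 124 and 105 CPM (D0), 87.9 and 89.1 (D12), 59.4 and 42.4 (D30) and 25.8 and 32.4 (D70). The change to D12 did not pass (log2 -0.37 ± 0.20, adjusted p = 0.223, edgeR), and that from D12 to D70 did (-1.61 ± 0.20, adjusted p = 0.00242). The 2 libraries of each stage lay apart from those of every other stage. ZNF738 was alike, with an adjusted p of 0.170 to D12 and of 0.00257 from D12 to D70.

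ZNF724 (ENSG00000196081, chr19:23404401-23433196, - strand) went from 70.01 and 64.8 CPM on D0 to 6.94 and 9.34 on D70, and ZNF730 (ENSG00000183850, chr19:23258012-23330023, + strand) from 42.5 and 33.4 to 5.27 and 5.96. The log2 fold changes were -3.05 ± 0.33 and -2.76 ± 0.25 (SE). ZNF724 shares 54.9% of its 50-base words with transcripts of other genes, so reads of its copies may be divided between genes. Among the 26 tested members of the run that share at most 20% of their words, 16 fell and 1 rose. Of all genes 14.7% fell and 15% rose.

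ZNF91 (ENSG00000167232, chr19:23487793-23578273, - strand), which lies beside ZNF724 and is known to silence SVA retrotransposons, was the member that rose. It had 119 and 113 CPM in the control libraries of D0, 220 and 167 in those of D12, 303 and 282 in those of D30, and 167 and 337 in those of D70. All libraries of later stages lay above those of D0. The log2 fold change from D0 to D70 was 1.12 ± 0.35 (adjusted p = 0.0337, edgeR) in control and 1.09 ± 0.35 (adjusted p = 0.0386) in TMG cells. Without D70 control replicate 2 the control value was 0.53 and did not pass, and it also missed the threshold without either control library of D0 or either TMG library of D0, at values between 1.08 and 1.19. The 9 tested members that passed in neither direction were ZNF14, ZNF506, ZNF737, ZNF626, ZNF430, ZNF493, ZNF429, ZNF726 and ZNF254. ZNF254, at the end of the run, was at 58.5 and 56.8 CPM on D0, at 109 and 75.7 on D30 and at 44.2 and 67.3 on D70.

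**Figure D2:**
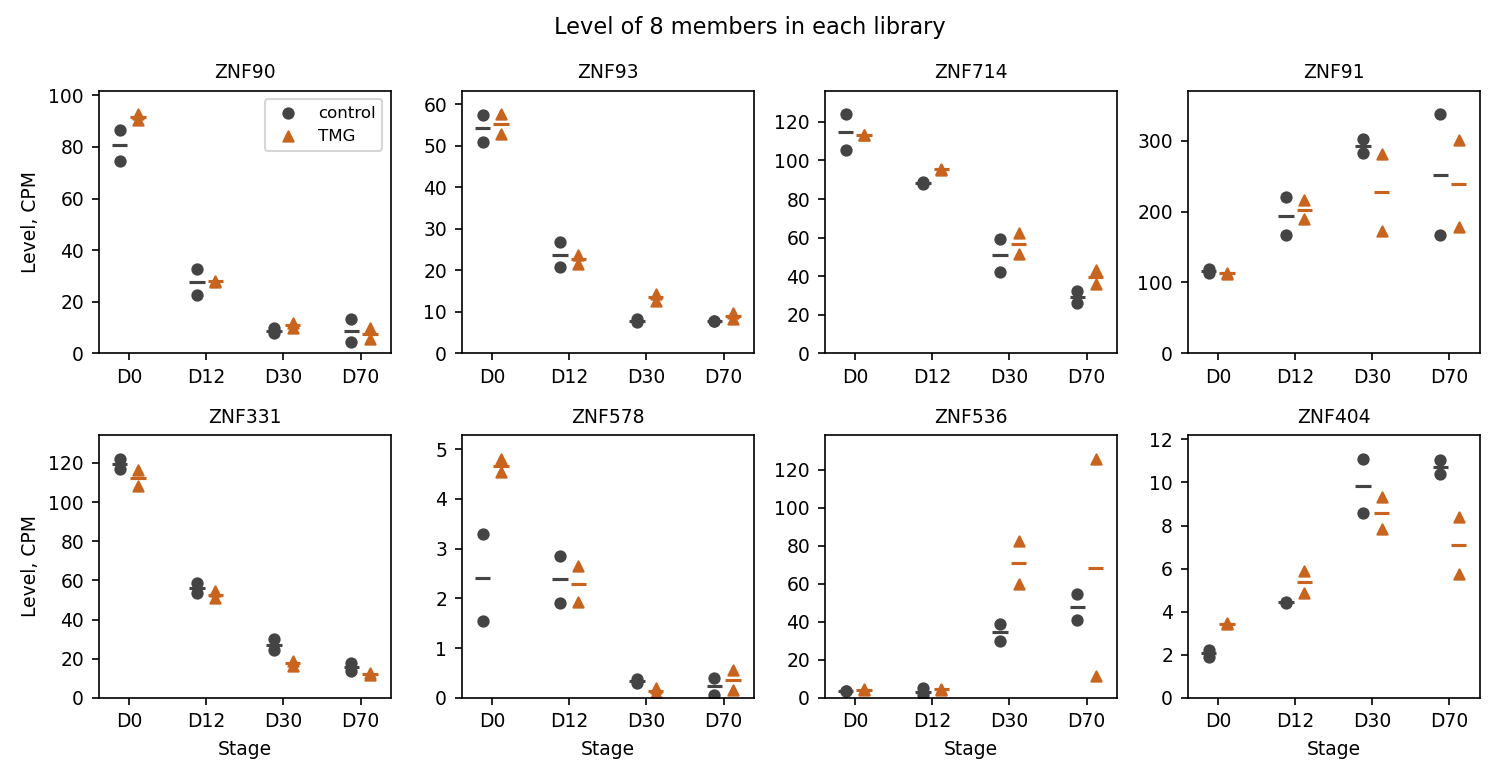
Level in CPM (vertical axis) of 8 members in each control (circles) and TMG (triangles) library by stage, with a bar at the mean of the 2 libraries. ZNF90, ZNF93, ZNF714, ZNF331 and ZNF578 were lower on D70 than on D0, and ZNF91, ZNF536 and ZNF404 were higher.

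The summed level of the run was lower at later stages. In the control libraries it was 1381 and 1220 CPM at the start, 1161 and 969 CPM on D12, 1012 and 842 CPM on D30, and 589 and 920 CPM at the end. Without ZNF91 the sums were 1262 and 1107, 941 and 802, 709 and 560, and 422 and 583 CPM. The other 201 members summed to 4327 and 4603 CPM on D0 and to 3997 and 4060 on D70. The control mean was highest on D0 for 22 of the 28 tested members of the run, on D12 for 1, on D30 for 5 and never on D70, and it fell at each of the 3 steps for 15. Among the 195 other tested members it was highest on D0 for 56 and fell at each step for 22. This was not counted over all genes. Of the 28 tested members of the run, 6 fell and 0 rose from D0 to D12, and 10 fell and 0 rose from D12 to D70 (edgeR). Over all genes 9.71% and 4.66% fell in these steps. At an unadjusted p under 0.05 edgeR counted 9 and 15 that fell and 0 that rose in either step, where 17.6% and 13% of all genes fell.

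**Figure D3:**
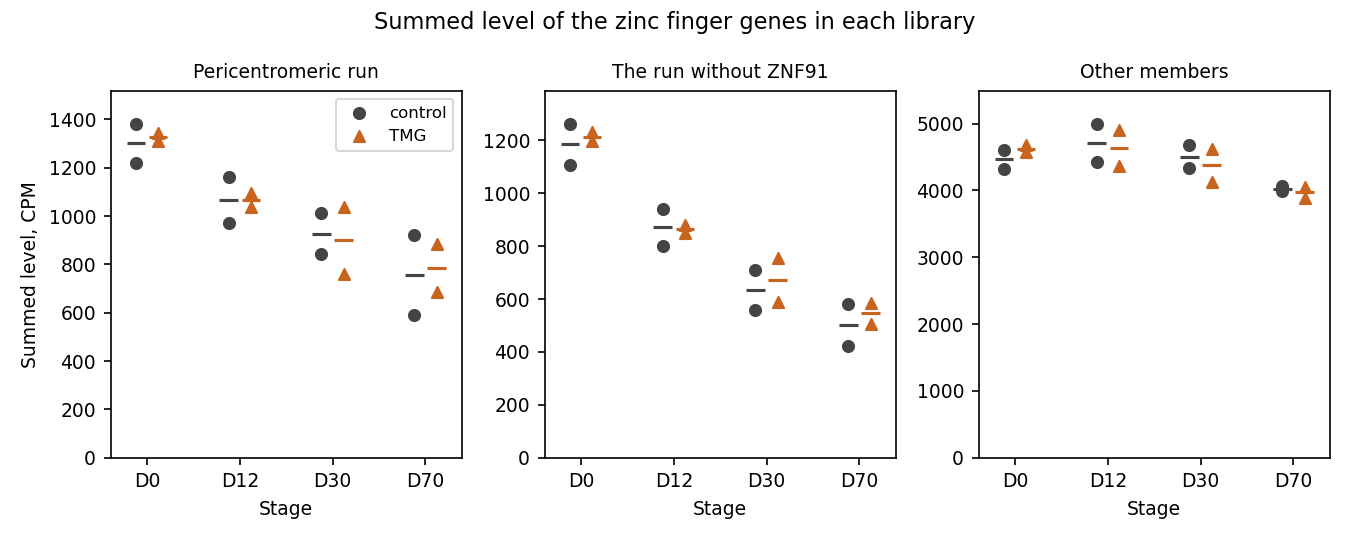
Summed CPM (vertical axis, from 0) of the 37 genes of the pericentromeric run, of the run without ZNF91 and of the 201 other members, in each control (circles) and TMG (triangles) library by stage, with bars at the means. The run without ZNF91 went from 1262 and 1107 CPM on D0 to 422 and 583 CPM on D70 in control, while the other members stayed between 3894 and 4996 CPM.

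The replicates of D70 were not alike. In control, 27 of the 28 tested members of the run were higher in replicate 2, the library with 45314 CPM of mesenchymal markers, than in replicate 1. In TMG 17 of 28 were higher in replicate 2, which had 59515 CPM of these markers. Replicate 1 in turn had more of the choroid plexus and roof plate markers, with 10131 against 223 CPM in control and 3073 against 11.01 CPM in TMG. It also had more of the neuron markers, with 1184 against 586 CPM and 1224 against 222 CPM. No such count is given for other genes, so these counts of members cannot be called particular to the run. In control replicates 1 and 2 the median log2 value against D0 control was -1.54 and -0.90 in the run. Over all members it was -0.09 and 0.06. The part of this difference in the result was not tested. The fall was also counted with either library left out, which leaves the other library with its own mix of markers. Without D70 control replicate 1 the count was 15 of 28, and without replicate 2 it was 19.

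Libraries kept in TMG, which share none with the control comparison, were compared in the same way. From D0 to D70 in TMG cells 16 members of the run fell, all 16 among the 18 that fell in control, and ZNF91 rose in both. Of all members 27 rose and 49 fell in TMG cells, where 14.9% and 14.1% of all genes did. Of the 50 that fell in control 43 (86%) also fell in TMG, which is 87.8% of the TMG list, and of the 38 that rose in control 20 (52.6%) rose in TMG, 74.1% of that list. The overlap between arms was not counted over all genes, so these shares cannot be called particular to the members or the run. The median of the run was -1.13 in TMG cells.

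**Figure D4:**
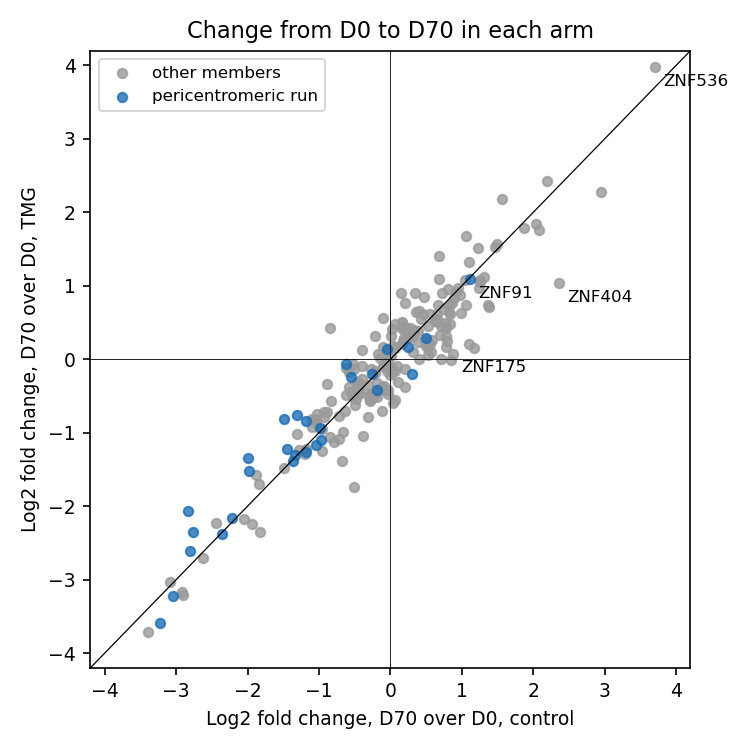
Log2 fold change from D0 to D70 of the 223 tested members in control (horizontal axis) and in TMG cells (vertical axis), with the line of equality. The arms share no library but share 1 fit. The pericentromeric run (blue) had medians of -1.24 and -1.13, and ZNF404 lay below the line at 2.36 in control and 1.04 in TMG.

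Genes that are not members but lie within the span of the run, none of them protein-coding, were counted as well. Of 46 tested, 18 fell from D0 to D70 in control cells and 0 rose, where 14.7% of all genes fell (edgeR). Of these 18, 8 did not hold 10 counts in both D70 control libraries, so they may have passed the filter only through earlier stages, and the count is given as a description. They included 15 long non-coding RNAs, of which 5 fell, and 31 pseudogenes of several classes, of which 13 fell. The word TCCAATCAG was also found in 23 members outside the run, 4 in the run from ZNF554 to ZNF77 and 19 in the run from ZNF653 to ZNF791, both on the short arm. Of the 22 that were tested 4 rose and 3 fell from D0 to D70, where 15% and 14.7% of all genes did, and the median was 0.10.

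Outside the pericentromeric run, some members lost most of their level. ZNF578 (ENSG00000258405) went from 1.54 and 3.29 CPM on D0 to 0.0643 and 0.402 on D70, with 25 and 47 counts on D0 and 1 and 5 on D70. It passed the filter of 10 counts only through groups in which it was higher, so its fitted log2 fold change of -3.39 is given as a description. That value was -2.56 without D70 control replicate 1 and -5.05 without D70 control replicate 2. ZNF878 fell by 3.08 ± 0.37 on the log2 scale, from 6.92 and 6.43 CPM to 0.836 and 0.724, where the D70 libraries held 13 and 9 counts. ZNF578 and ZNF878 were the 2 of the 50 members that fell with under 10 counts in a D70 control library, and 0 of the 38 that rose were under 10 counts in a D0 control library. ZNF296, which the pattern gave no KRAB box, fell by 2.92 ± 0.53, from 8.90 and 16.02 CPM to 1.35 and 1.93. In all 3 genes the D70 libraries lay below those of D0.

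ZNF331 (ENSG00000130844, chr19:54022781-54083523, + strand), an imprinted KRAB gene, combined a high level with a steady fall. The control libraries held 117 and 122 CPM (D0), 53.5 and 58.6 CPM (D12), 29.8 and 24.5 CPM (D30) and 13.95 and 18.03 CPM (D70). Each stage lay apart from the one before it, and the fall to D70 was 2.90 ± 0.18 on the log2 scale (adjusted p = 1.75e-05, edgeR). ZNF480 and ZNF525, in the same run of neighbours, fell early. ZNF480 was at 78.4 and 53.6 CPM on D0 and 27.5 and 18.1 on D12 (adjusted p = 0.0157, edgeR), and ZNF525 at 50.2 and 56.8 and then 10.7 and 10.7 (adjusted p = 0.0119). The early fall of ZNF480 missed the threshold without D0 control replicate 1 or either D12 control library (values from -1.85 to -1.20), and that of ZNF525 when any 1 of the 4 control libraries of D0 and D12 was left out (-2.38 to -2.23).

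The largest rise was that of ZNF536 (ENSG00000198597, chr19:30715798-31204493, + strand), a repressor expressed in brain and known to restrain neuronal differentiation, which stands alone in its run. Its control levels were 3.77 and 3.57 CPM (D0), 5.11 and 1.48 (D12), 29.98 and 38.8 (D30) and 54.7 and 40.9 (D70). From D0 to D70 the value was 3.70, and it did not pass without either D0 control library (3.66 and 3.77). The rise came after D12, with 3.85 ± 0.90 on the log2 scale from D12 to D70 (adjusted p = 0.0237, edgeR) against -0.15 ± 0.85 before it (adjusted p = 0.926). In TMG cells D70 gave 126 and 11.3 CPM, and the lower value came from the library with 59515 CPM of mesenchymal markers and 222 CPM of neuronal markers, where replicate 1 had 1224 CPM of the latter. Their part in the result was not tested. ZNF404 was the other member that rose from D12 to D70, from 4.42 and 4.43 to 10.4 and 11.03 CPM (1.27 ± 0.28, adjusted p = 0.0191, edgeR). Neither rise from D12 passed without the filter on low counts or without either D12 control library. The call was also lost for ZNF536 without D70 control replicate 1 and for ZNF404 without either D70 control library, at values from 3.23 to 4.997 for ZNF536 and from 1.22 to 1.31 for ZNF404.

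Other rises were early and modest in level. From D0 to D12 in control cells 31 members rose and 22 fell (edgeR), where 6.97% and 9.71% of all genes did. Without the filter on low counts 28 members changed in place of 53, and the total depended strongly on single control libraries. ZNF584 went from 5.68 and 7.48 to 21.2 and 18.01 CPM, ZNF441 from 4.70 and 3.92 to 14.99 and 10.35, ZNF491 from 2.66 and 1.82 to 6.14 and 6.46, and ZNF112 from 7.85 and 9.44 to 24.5 and 20.7. Their log2 fold changes lay between 1.39 and 1.57, with adjusted p-values from 0.0037 to 0.0235, and no D12 library overlapped D0, as was so for 66.6% of all genes. ZNF112 passed with any 1 library left out. The other three did not pass without some of the control libraries of these days, ZNF584 (values from 1.42 to 1.78) when any 1 of the 4 was left out, ZNF441 (1.29 to 1.72) without either D0 library or D12 replicate 1, and ZNF491 (1.24 to 1.55) without D0 replicate 2 or either D12 library. ZNF540 rose over the whole course, from 2.22 and 0.909 CPM on D0 to 5.66 and 7.73 on D70 (2.08 ± 0.51, adjusted p = 0.0114, edgeR), and missed the threshold at 1.58 without D0 control replicate 2. From D12 to D70 only 2 members rose while 23 fell, where 6.44% and 4.66% of all genes did. Here 16 members changed in place of 25 without the filter, and single control libraries again moved the total. In TMG cells 23 rose and 24 fell from D0 to D12, and 1 rose and 10 fell from D12 to D70, against 7.24% and 9.19%, and 3.01% and 2.14%, of all genes.

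Members with a known role moved apart from each other. ZNF568, whose mouse counterpart represses a placental Igf2 transcript, rose from 4.70 and 6.78 CPM on D0 to 13.9 and 15.9 on D70 (1.37 ± 0.24, adjusted p = 0.00234, edgeR), and ZNF382 rose from 9.33 and 8.95 to 17.7 and 21.4 (1.09 ± 0.30, adjusted p = 0.0206). Without either D0 control library or D70 control replicate 2 ZNF382 did not pass, at values from 0.96 to 1.15. ZNF473, which takes part in the 3′ end processing of histone mRNAs, was at 17.4 and 15.9 CPM on D0 and at 63.2 and 23.6 on D70, with a log2 fold change of 1.38 and an adjusted p of 0.0477 (edgeR). It missed the threshold without the filter and when any 1 of 13 libraries was left out, and without D70 control replicate 1 the value was 0.50. ZNF507 fell from 72.8 and 81.9 to 40.95 and 60.04 CPM (adjusted p = 0.0291, edgeR). Its call was lost without the filter and when any 1 of 6 libraries was left out, with a value of -0.37 in place of -0.62 without D70 control replicate 1. ZNF274, which recruits SETDB1 to the 3′ ends of zinc finger genes, was at 41.8 and 43.3 CPM on D0 and 41.4 and 41.1 on D70 (log2 -0.04 ± 0.18). The values of ZNF350, a repressor of DNA damage response genes, and of ZNF304 were 0.56 ± 0.30 and 0.24 ± 0.20, and neither passed.

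The cofactors through which KRAB proteins act were counted as well. Of a list of 26 cofactors and silencing partners 23 were tested. FAM208A and UHRF1 were not matched by symbol, whatever their level, and ZFP57 did not pass the filter on counts. Of the 23, 13 fell and 1 rose from D0 to D70 in control cells, with a median of -0.71 (edgeR), where 14.7% of all genes fell and 15% rose. In TMG cells 14 fell and 1 rose, where 14.1% and 14.9% of all genes did. TRIM28, the central corepressor, went from a mean of 681 CPM on D0 to 223 CPM on D70 (log2 -1.61 ± 0.23), and the maintenance methyltransferase DNMT1 fell by 1.69 ± 0.27 on the same scale. DNMT3B, a methyltransferase of stem cells, had the largest fall of the list at -6.51 ± 0.46, whereas SETDB1 was at 62.1 and 62.9 CPM (0.02 ± 0.17). CHD3, a subunit of the NuRD complex, was the one that rose, by 1.81 ± 0.49.

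The members were also counted by KRAB status and finger number, where 15% of all genes rose and 14.7% fell. With the KRAB pattern 26 of 161 tested members rose from D0 to D70 and 37 fell. Outside the pericentromeric run 25 of 135 tested members with it rose and 21 fell, against 12 and 11 of 59 without it in any run. With under 10 fingers 6 rose and 13 fell of 59, with 10 to 14 fingers 20 and 26 of 98, and with 15 or more 12 and 9 of 63. The differences between these classes were not tested.

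The second comparison asked whether raised O-GlcNAc changed these genes. With the false discovery rate held at 5%, 0 members passed for TMG against control on D0, D12 or D70 with edgeR, which called 0 of all genes. DESeq2 called 0 members too, where 0.0206%, 0.0454% and 0.296% of all genes passed on these days. At an unadjusted p under 0.05 edgeR counted 1 member on D0, 1 on D12 and 6 on D70, out of 223, where 1.26%, 2.48% and 5.49% of all genes did. Fits of the 4 libraries of a stage alone gave 7, 1 and 0, and the D70 count depended strongly on single libraries. The medians over the members were 0.02 on D0, -0.02 on D12 and 0.00 on D70, and the middle 50% of the members lay between -0.20 and 0.17 on D70.

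The member on D0 was ZNF404, which went from 1.92 and 2.24 CPM in control to 3.43 and 3.45 in TMG (0.73 ± 0.29, adjusted p = 1, edgeR). On D70 it lay the other way, at 10.4 and 11.03 in control and 5.77 and 8.42 in TMG (-0.60 ± 0.28, adjusted p = 0.902, edgeR). The D12 member, ZNF77, was at 7.91 and 6.79 CPM in control and 4.21 and 4.47 in TMG (-0.76 ± 0.28, adjusted p = 1, edgeR). In each of these 3 comparisons the TMG libraries lay outside the control range, which was so for 36.6%, 22.1% and 34.3% of all genes on D0, D70 and D12.

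Of the 6 members on D70 only ZNF586 was higher in TMG, at 20.9 and 27.3 against 15.8 and 20.04 CPM. The other five, ZNF175, ZNF331, ZNF382, ZNF546 and ZNF569, were lower. ZNF546 had the largest difference, at 9.80 and 6.38 against 14.98 and 16.5 CPM (-0.96 ± 0.34, adjusted p = 0.884, edgeR). None of the 223 members had an unadjusted p under 0.05 in the same direction on 2 of the 3 days. The change of the TMG effect between stages also gave 0 members at that rate, both with edgeR, which called 0 of all genes, and with DESeq2, which called 0.0124% (D12 minus D0), 0.0454% (D70 minus D12) and 0.0247% (D70 minus D0) of all genes. At an unadjusted p under 0.05 edgeR counted 0 for D12 minus D0, 1 for D70 minus D12 and 2 for D70 minus D0, where 1.07%, 2.41% and 2.19% of all genes did. The last 2 were ZNF404 (-1.32 ± 0.40) and ZNF175 (-0.81 ± 0.31).

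On D30, the stage by which the chromosome was chosen, the members themselves centred on no change. Their median TMG effect was 0.00, with 112 above and 111 below 0, while the 961 other coding genes of chromosome 19 had a median of -0.17. The median of all 1512 tested genes of the chromosome was -0.12, and without the members it was -0.15. ZNF genes of other chromosomes had a median of -0.04, and all genes 0.01. The other coding genes of chromosome 19 were also below the members on D0 (-0.11 against 0.02) and D12 (-0.07 against -0.02), whereas on D70 both medians lay within 0.01 of 0. Without D30 TMG replicate 1 the members' median was -0.13, which leaves the library with 29726 CPM of mesenchymal markers alone on the TMG side, whose part in the result was not tested.

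**Figure D5:**
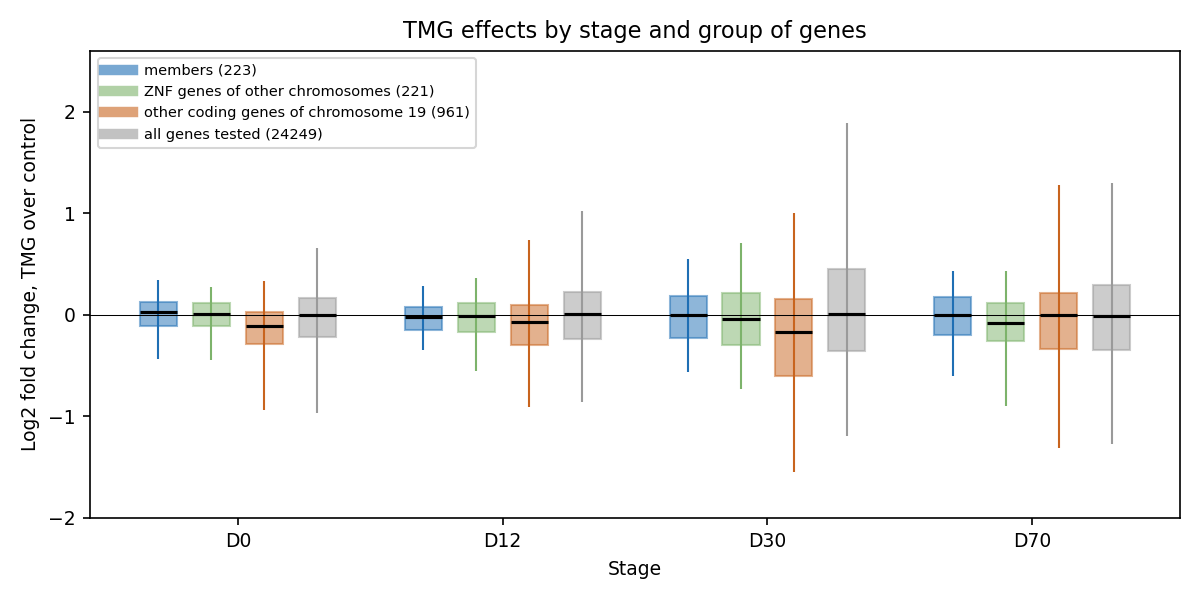
Log2 fold change of TMG over control (vertical axis) by stage for the members, ZNF genes of other chromosomes, other coding genes of chromosome 19 and all genes tested. Boxes span the middle 50%, lines the 5th to 95th percentile and black bars the medians, which for the other coding genes of chromosome 19 were -0.11 on D0, -0.07 on D12 and -0.17 on D30.

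Single members on D30 spread from -1.42 (ZNF296) to 1.05 (ZNF536), and 4 differed by over 2-fold. ZNF536 was at 29.98 and 38.8 CPM in control and 59.9 and 82.2 in TMG. ZNF93 was at 8.18 and 7.48 and at 12.5 and 14.4, ZNF85 at 8.74 and 7.98 and at 10.8 and 15.6, ZNF69 at 10.6 and 14.4 and at 18.4 and 22.8, and ZNF491 at 7.52 and 9.53 and at 11.9 and 16.5 CPM. These 5 were the largest rises in which both TMG libraries lay above both control libraries.

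The largest falls of that kind were in genes of low level. ZNF296 was at 2.26 and 4.17 CPM in control and 1.46 and 0.946 in TMG, ZNF578 at 0.376 and 0.301 and at 0.194 and 0.0946, and ZNF667 at 1.60 and 2.56 and at 1.55 and 0.568. In every D30 library ZNF578 held fewer counts than the minimum of the filter, so its D30 fall rests on a few reads. It passed the filter only through groups in which it was higher. ZNF563 went from 6.11 and 5.87 to 4.86 and 1.89, and ZNF30 from 7.05 and 6.22 to 4.18 and 3.98 CPM. ZNF563 and ZNF667 were lowest in TMG replicate 2, the library with the high mesenchymal markers. In the pericentromeric run 20 of 28 tested members had a positive D30 value, 71.4% against 50.8% of all genes, with a median of 0.15. Of the 6 stem cell markers 3 were higher on D30 in both TMG libraries than in both control libraries and 0 lower, with POU5F1 at 9.13 and 5.49 against 0.0940 and 0.401 CPM, NANOG at 1.07 and 1.23 against 0.188 and 0.151, and TDGF1 at 4.76 and 1.23 against 0.0940 and 0.251. All 6 summed to 82.5 and 28.3 CPM in TMG and to 59.3 and 31.9 CPM in control. Their part in the D30 values of the run was not tested. Over the members 79 of 223 had groups that did not overlap, 35.4% against 44.1% of all genes.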

How the data were processed

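RNA was measured in 16 libraries of H9 cells, 2 for each of 4 stages and 2 treatments, grouped by their titles, since a separate treatment tag names the other arm in 8 of them. The deposited values are estimated counts for each Ensembl gene of GRCh37.p13, which the authors obtained with RSEM 1.2.12 from reads mapped to hg19 by Bowtie2, rounded to whole numbers and not normalized. RSEM divides reads among similar genes, which bears on members that share sequence.

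The members, the runs, the lists and the tests were chosen with earlier results of these data known. Tests used edgeR 4.0.16 (R 4.3.3): TMM, filterByExpr over the 8 groups (minimum count 10, minimum total 15, 24249 genes kept), 1 mean per group over 16 libraries with 8 residual degrees of freedom, robust quasi-likelihood F-tests, and Benjamini-Hochberg adjustment over all genes tested. Each standard error is the size of a log2 fold change divided by the square root of F. DESeq2 1.42.0 was an alternative, as were RLE size factors, no low-count filter, a block for the replicate number, the 4 libraries of a stage alone, each library left out in turn and members with a letter after the number. On simulated counts for D12 over D0 in control (23400 genes, 200 changed 4-fold), edgeR recovered 53 and called 4 unchanged genes, and DESeq2 97 and 51. Fitted log2 fold changes carry the default prior count of edgeR (0.125), and correlations between replicates used log2(CPM + 0.5). Medians and counts over lists have no test.

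Positions and biotypes came from GENCODE v44 lifted to GRCh37, promoters from RefSeq (GRCh38.p14). Fingers and KRAB A boxes were counted by pattern in translated canonical transcripts, and shared sequence as the share of 50-base words also found in transcripts of other genes. Named members were those with a known role, the 4 largest rises and falls past the threshold without overlap in each control stage comparison, and the 5 largest of each on D30 as a description. Other members are named where a count of theirs is given, after their values were seen.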

Additional observations from a re-analysis of the deposited data

How the results depend on the processing

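Of the 28 tested members of the pericentromeric run 18 fell with the reported settings, 18 or 19 with RLE, DESeq2, no filter, the replicate block and runs split at 0.5 or 2 Mb, and 14 to 19 with any 1 library left out (14 without D0 control replicate 1). The counts of all members changed between stages moved further. Without the filter on low counts 28 members changed from D0 to D12 in control (53 as reported), 16 from D12 to D70 in control (25) and 31 from D0 to D12 in TMG (47), and DESeq2 called 21 from D12 to D70 in TMG (11). With 1 library left out the ranges were 8 to 63, 5 to 31 and 44 to 96 in control (D12 over D0, D70 over D12, D70 over D0; 53, 25 and 88 as reported) and 8 to 59, 2 to 15 and 37 to 78 in TMG (47, 11 and 76). For D12 over D0 in control the count was 8 and 18 without D0 control replicates 1 and 2, 10 and 8 without D12 control replicates 1 and 2, and 35 and 34 without D0 TMG replicates 1 and 2. For D70 over D12 in control it was 16 without either D0 TMG library, 5 and 9 without D12 control replicates 1 and 2, and 7 without D70 control replicate 1. For D70 over D0 in control it was 44 and 57 without D0 control replicates 1 and 2, and 55 without D70 control replicate 1. In TMG it was 8, 9, 10 and 17 for D12 over D0 without D0 replicates 1 and 2 and D12 replicates 1 and 2, 6, 6, 4 and 2 for D70 over D12 without the same libraries, and 38 and 37 for D70 over D0 without D0 replicates 1 and 2. A lone library of a group was assumed to vary like the others.

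The number of members at an unadjusted p under 0.05 for TMG was 1 (D0), 1 (D12) and 6 (D70), and is not given for D30, for which it had been planned, because that stage chose the members. DESeq2 gave 2 for D0 and 2 for D12, and so did the replicate block. Dropping the filter gave 0 for D0 and 3 for D70, and fitting the 4 libraries of a stage alone gave 7 for D0 and 0 for D70. Leaving out 1 library gave 0 to 4 (D0), 0 to 3 (D12) and 2 to 23 (D70). For D70, dropping control replicate 2 of that day gave 17, dropping its TMG replicate 1 gave 23, and dropping any of 7 libraries of D0 and D12 gave 2 or 3. With 1 library left out the median TMG effect ranged from -0.0103 to 0.0531 for D0, from -0.100 to 0.0640 for D12, from -0.128 (without TMG replicate 1) to 0.0540 (without TMG replicate 2) for D30 and from -0.0509 to 0.0293 for D70, so the medians of all 4 stages, all near 0, changed sign. The TMG effect differed between stages in 0 members with every library left out in turn. No called value of a named member changed sign.

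With the replicate block 56, 25 and 90 members changed in control and 55, 12 and 77 in TMG. Same-numbered libraries of the 2 arms deviated together with correlations over genes between 0.05 (D0) and 0.64 (D70), and 2 pairs a stage do not show that the numbers pair the cultures. Of the values of single named members under the alternatives, 75 lost the threshold, 772 were counted as the same and 2 moved. The D30 TMG values among them had no threshold to keep. With 1 library left out that of ZNF667 ranged from -1.87 to -0.43.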
